A study of Rattus norvegicus with 119 samples.

Results

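High-dose pioglitazone given for 3 days was compared with its vehicle in rat bladder urothelium, the stratified epithelium that lines the bladder. Sprague-Dawley rats of both sexes were dosed by mouth once a day with pioglitazone hydrochloride at 63 mg/kg/day or with methylcellulose solution alone, and bladders were collected on the day after dosing ended. The urothelium was scraped from the opened bladder with a scalpel, and each array held the Cy3-labelled RNA of 1 sample on an Agilent one-colour platform. More rats were dosed than arrays were made, and the labels do not say whether an array held a single rat, so the spread between arrays may be partly technical. The comparison rested on 18 of the 119 arrays of the series, namely 4 treated and 5 vehicle arrays from females and 4 treated and 5 vehicle arrays from males. They were chosen by their group labels, and 1 treated array of each sex was left out because its label marked it as failing quality control, as was 1 other array of the series, which leaves 116. No label gave the age of the animals.

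Pioglitazone belongs to the thiazolidinediones, ligands that activate the nuclear receptor PPAR-gamma, which binds DNA together with a retinoid X receptor. In fat cells the receptor switches on genes for fatty acid uptake, binding, storage and oxidation. Urothelium also makes PPAR-gamma, where the receptor is known for its part in the differentiation of the superficial umbrella cells, and pioglitazone has been studied in the bladder because tumours arose there in dosed male rats.

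Of the 18 arrays, 2 stood apart in their correlation with other arrays. Treated female 3 had a mean correlation of 0.840 with the other arrays of its group, where the others reached 0.926 to 0.937, and its median log2 signal of 6.63 was the highest of the 18. Vehicle male 3 correlated with all arrays at a median of 0.930, against 0.950 to 0.984 for the other arrays and 0.817 for treated female 3. Next lowest were vehicle females 2 and 1, at 0.950 and 0.952. The choice to leave out vehicle male 3 as well was made after the data were seen. The results that these arrays move most are given with and without them, and how much of any other difference they carry was not tested.

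Genes of the urothelium gave signal on every array. Among the uroplakins, the membrane proteins of umbrella cells, Upk1a lay between 16.38 and 17.76 and Upk3a between 16.35 and 18.14 on the log2 signal scale, and the basal keratin Krt15 lay between 14.79 and 17.02. Others varied more, Upk3b from 5.94 to 13.06 and the basal keratins Krt5 from 7.54 to 12.42 and Krt14 from 7.88 to 12.91. Genes of the tissue beneath the epithelium varied too. The summed signal of 13 smooth muscle markers, taken as log2, ran from 13.8 to 19.4 in vehicle females, from 18.3 to 20.8 in treated females, from 14.5 to 19.7 in vehicle males and from 13.6 to 19.2 in treated males. Treated female 3 was the highest array. For 22 fibroblast and matrix markers the same sum ran from 15.5 to 18.7, 16.8 to 19.1, 15.7 to 20.2 and 16.1 to 17.4 in that order, and for 12 adipocyte markers from 11.0 to 17.4, 12.9 to 15.2, 11.2 to 15.0 and 11.0 to 13.8. Single markers could be near the background, as Adipoq, which ran from 4.63 to 14.60. Genes were tested only where their mean log2 signal was above 5.26. On treated female 3 the smooth muscle sum, 20.8, was above the same sum for 25 umbrella cell and differentiation genes, 19.7. On treated female 5 these sums were 20.1 and 19.9. In scraped tissue of this kind, fewer cells of a type and less RNA per cell cannot be told apart.

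**Figure D1:**
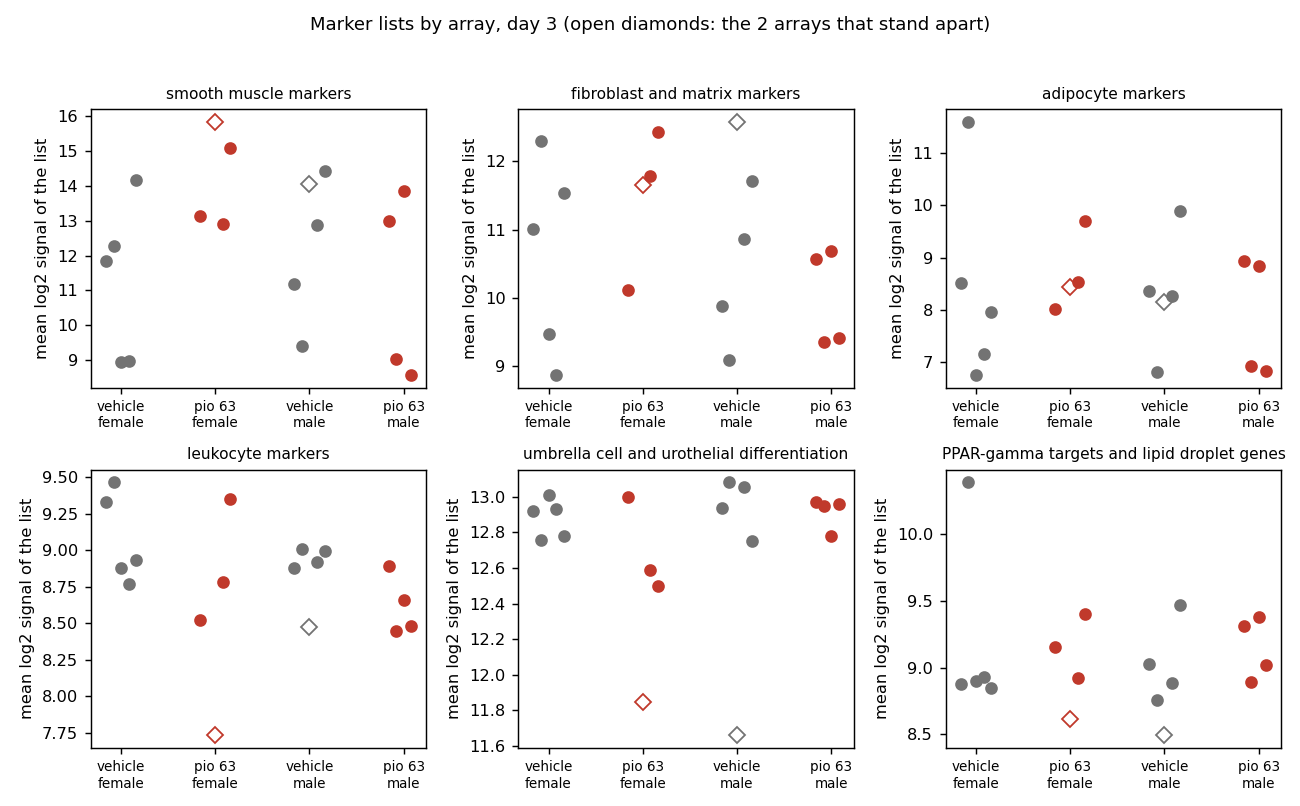
Mean log2 signal of 6 gene lists (vertical axes) on each of the 18 arrays, by group along the horizontal axis; open diamonds mark treated female 3 and vehicle male 3. Smooth muscle markers lie between 12.9 and 15.8 in treated females, where 1 vehicle female reaches 14.2, and the umbrella cell list is lowest on the arrays with diamonds.

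After 3 days of the high dose 5 genes rose and 4 fell, as the mean of the differences in the 2 sexes. The genes that rose were the thiolases Acaa1a and Acaa1b, the retinol-binding protein Rbp7, the carnitine palmitoyltransferase Cpt1c and the endosomal GTPase Rab4a. Those that fell were the endoplasmic reticulum chaperone Calr, the alanine aminotransferase Gpt, the junction protein gene Kazn and the Toll-like receptor pathway inhibitor Irak3. They were 0.0393% and 0.0315%, together 0.0708%, of the 12713 genes tested with limma at an adjusted p under 0.05, and 377 genes were higher and 963 lower at an unadjusted p under 0.05, or 213 and 283 without treated female 3. Without treated female 3, 6 genes rose (0.0472%) and 2 fell (0.0157%), together 0.0629%, and 6 of the 9 were among them, namely Acaa1a, Acaa1b, Rbp7, Cpt1c, Rab4a and Calr. Without both arrays that stood apart, 8 genes were called and 5 of them were among the 9, while Rab4a missed the threshold at an adjusted p of 0.0628.

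The count moved with single arrays while most of the same genes stayed in it. It was 208 without treated female 4, 64 without treated female 5, 60 without treated female 1, 38 without vehicle male 3, 33 without vehicle male 5, 26 without vehicle female 3, 20 without vehicle male 2, 18 without vehicle male 1, 14 without vehicle female 5 and 14 without treated male 1. In each of these the 9 genes were all still called. Kazn alone of the 9 was lost without vehicle female 1, vehicle female 2, vehicle male 4, treated male 3 or treated male 4. With a spread estimated from the 18 arrays alone, in place of all 116, Calr was the 1 gene called, at an adjusted p of 0.0166.

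The promoters of 4 of these genes are shown because Acaa1a, Acaa1b, Rbp7 and Calr were called with and without the arrays that stood apart. Each holds 250 bases before and 50 after the annotated start in RefSeq's GRCr8 build, written 5′ to 3′ on the gene's strand, with every CCAAT, or its reverse complement, in capitals. RefSeq's table held a promoter for 6 of 10 genes looked up. The others found were Rab4a and Irak3, and Cpt1c, Gpt, Kazn and Fabp4 are named only. The windows lie at chr8:127957231-127957530 on the plus strand for Acaa1a, chr8:127759520-127759819 on the minus strand for Acaa1b, chr5:165177350-165177649 on the minus strand for Rbp7 and chr19:40213117-40213416 on the plus strand for Calr.
Acaa1a: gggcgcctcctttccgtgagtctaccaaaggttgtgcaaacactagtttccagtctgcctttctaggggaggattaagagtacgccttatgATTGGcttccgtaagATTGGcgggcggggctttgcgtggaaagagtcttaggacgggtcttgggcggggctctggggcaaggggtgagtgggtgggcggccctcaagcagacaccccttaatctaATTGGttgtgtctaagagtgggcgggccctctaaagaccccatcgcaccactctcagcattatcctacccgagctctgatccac
Acaa1b: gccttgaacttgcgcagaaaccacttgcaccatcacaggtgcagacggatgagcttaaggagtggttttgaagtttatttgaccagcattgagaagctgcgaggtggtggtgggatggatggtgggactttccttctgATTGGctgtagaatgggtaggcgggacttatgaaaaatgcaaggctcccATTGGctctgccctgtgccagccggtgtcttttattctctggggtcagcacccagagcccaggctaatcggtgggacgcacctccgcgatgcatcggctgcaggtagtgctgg
Rbp7: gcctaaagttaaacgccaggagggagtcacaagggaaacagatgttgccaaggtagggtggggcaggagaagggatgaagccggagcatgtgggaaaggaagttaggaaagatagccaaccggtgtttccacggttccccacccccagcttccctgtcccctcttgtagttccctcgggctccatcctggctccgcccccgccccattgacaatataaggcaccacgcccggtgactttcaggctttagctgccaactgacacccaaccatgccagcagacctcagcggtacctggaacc
Calr: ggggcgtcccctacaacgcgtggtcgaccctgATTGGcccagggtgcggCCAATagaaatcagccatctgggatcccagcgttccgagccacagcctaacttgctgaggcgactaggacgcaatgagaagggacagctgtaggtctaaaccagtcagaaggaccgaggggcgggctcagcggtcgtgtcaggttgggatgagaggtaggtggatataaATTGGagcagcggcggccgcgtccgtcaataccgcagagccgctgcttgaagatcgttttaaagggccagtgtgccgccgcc
A CCAAT occurred 3 times in Acaa1a, at 159, 144 and 34 bases before the start, and 3 times in Calr, at 218, 201 and 32 bases before it. Acaa1b held 2, at 112 and 63 bases before its start, and Rbp7 held none. Rab4a and Irak3, which are not shown, held none either. Among 33469 promoters of the same length 37.494% held a CCAAT on either strand. Neither AGGTCA, the half-site that nuclear receptors of this class recognise, nor its direct repeat with a single-base spacer was found in any of the 6, with both strands searched. AGGTCA stood in 16.179% of all promoters and the repeat, whose matches hold AGGTCA too, in 0.054%.

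Acaa1a and Acaa1b encode peroxisomal 3-ketoacyl-CoA thiolases, which carry out the last step of each round of peroxisomal fatty acid oxidation. Acaa1b read 14.54, 14.10, 15.02, 15.06 and 14.70 in vehicle females and 16.03, 14.82, 15.60 and 15.50 in treated females, on the log2 signal scale. In males it read 14.78, 14.77, 13.12, 15.08 and 14.66 with vehicle and 15.52, 16.08, 16.47 and 16.32 with pioglitazone. The male groups did not overlap, and in females only treated female 3 lay within the vehicle range. Acaa1b rose by 1.21 ± 0.21 (SE) on the log2 scale, or 2.31-fold, with an adjusted p of 0.000268, and by 1.15 without both arrays that stood apart (adjusted p 0.00048).

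Acaa1a read 13.96, 13.58, 14.21, 14.28 and 13.99 in vehicle females, against 15.11, 14.23, 15.00 and 14.89 in treated ones. The male arrays read 14.02, 14.10, 12.66, 14.29 and 13.89 with vehicle and 14.95, 15.48, 15.72 and 15.50 with the drug. As for Acaa1b, treated female 3 was the 1 treated array inside a vehicle range. Acaa1a rose by 1.21 ± 0.20, or 2.32-fold, with an adjusted p of 0.000145. The 2 genes are close relatives and their probes may not tell them apart: over the 18 arrays the Acaa1a probe used here correlated at 0.990 with the Acaa1b probe used. A second Acaa1a probe correlated with these at 0.292 and 0.358 and differed by -0.07 between treatment and vehicle, so the rise of Acaa1a itself is uncertain. The second Acaa1b probe was higher by 1.26.

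Rbp7 encodes a cellular retinol-binding protein that is a PPAR-gamma target in mouse fat and endothelium. It read 12.45, 12.45, 12.72, 12.59 and 12.26 in vehicle females and 13.73, 13.08, 13.20 and 13.42 in treated females. Vehicle males read 12.70, 12.82, 10.26, 13.27 and 12.54, and treated males 13.66, 14.15, 14.48 and 13.99. Every treated array lay above every vehicle array of its sex, a pattern that 1 of the 12713 genes showed (0.00787%). Rbp7 rose by 1.31 ± 0.23, or 2.48-fold, with an adjusted p of 0.000498. Vehicle male 3 was by far the lowest array, and without it and treated female 3 the rise was 1.10 (adjusted p 0.00509).

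Cpt1c is the member of the carnitine palmitoyltransferase family that is best known from the endoplasmic reticulum of neurons and has little oxidising activity. It read 7.16, 6.45, 6.85, 6.58 and 7.15 in vehicle females and 8.44, 7.26, 8.52 and 7.21 in treated females. In males the values were 7.04, 7.15, 8.08, 6.97 and 6.85 with vehicle and 8.69, 7.88, 8.60 and 8.63 with pioglitazone. The female groups did not overlap, though treated females 3 and 5 lay just above the highest vehicle array, and vehicle male 3 overlapped the treated males. The gene rose by 1.13 ± 0.22, or 2.18-fold, with an adjusted p of 0.00386, and by 1.34 without both arrays that stood apart (adjusted p 0.000374).

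Rab4a, a small GTPase that returns cargo from early endosomes to the cell surface, changed least among the genes called. Vehicle females read 12.03, 11.73, 11.31, 11.41 and 11.78, and treated females 11.96, 12.27, 11.82 and 12.26. Vehicle males read 11.64, 11.62, 11.56, 11.66 and 12.01, and treated males 12.13, 12.05, 12.04 and 11.95. The groups overlapped in both sexes. Rab4a rose by 0.39 ± 0.075, or 1.31-fold, with an adjusted p of 0.00341.

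Fabp4, a fatty acid-binding protein of fat cells and a classical PPAR-gamma target, missed the threshold with all arrays. It read 13.79, 13.71, 14.44, 14.02 and 13.42 in vehicle females and 15.16, 13.41, 14.21 and 14.52 in treated females. Vehicle males read 14.49, 14.48, 11.79, 14.50 and 14.25, and treated males 15.16, 15.57, 15.47 and 15.59. The male groups stood apart, and the female groups overlapped. The difference was 0.997 ± 0.25 with an adjusted p of 0.0641, 1.15 without treated female 3 (adjusted p 0.0375) and 0.88 without both arrays that stood apart (adjusted p 0.196). Pgk1, Fermt2, Cpsf6 and Ramp1, the next genes by unadjusted p, were higher by 0.34, 0.45, 0.46 and 0.73, with adjusted p between 0.051 and 0.0864, and the second probe of Cpsf6 differed by -0.21. Without treated female 3 the difference of Cpsf6 was 0.29.

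**Figure D2:**
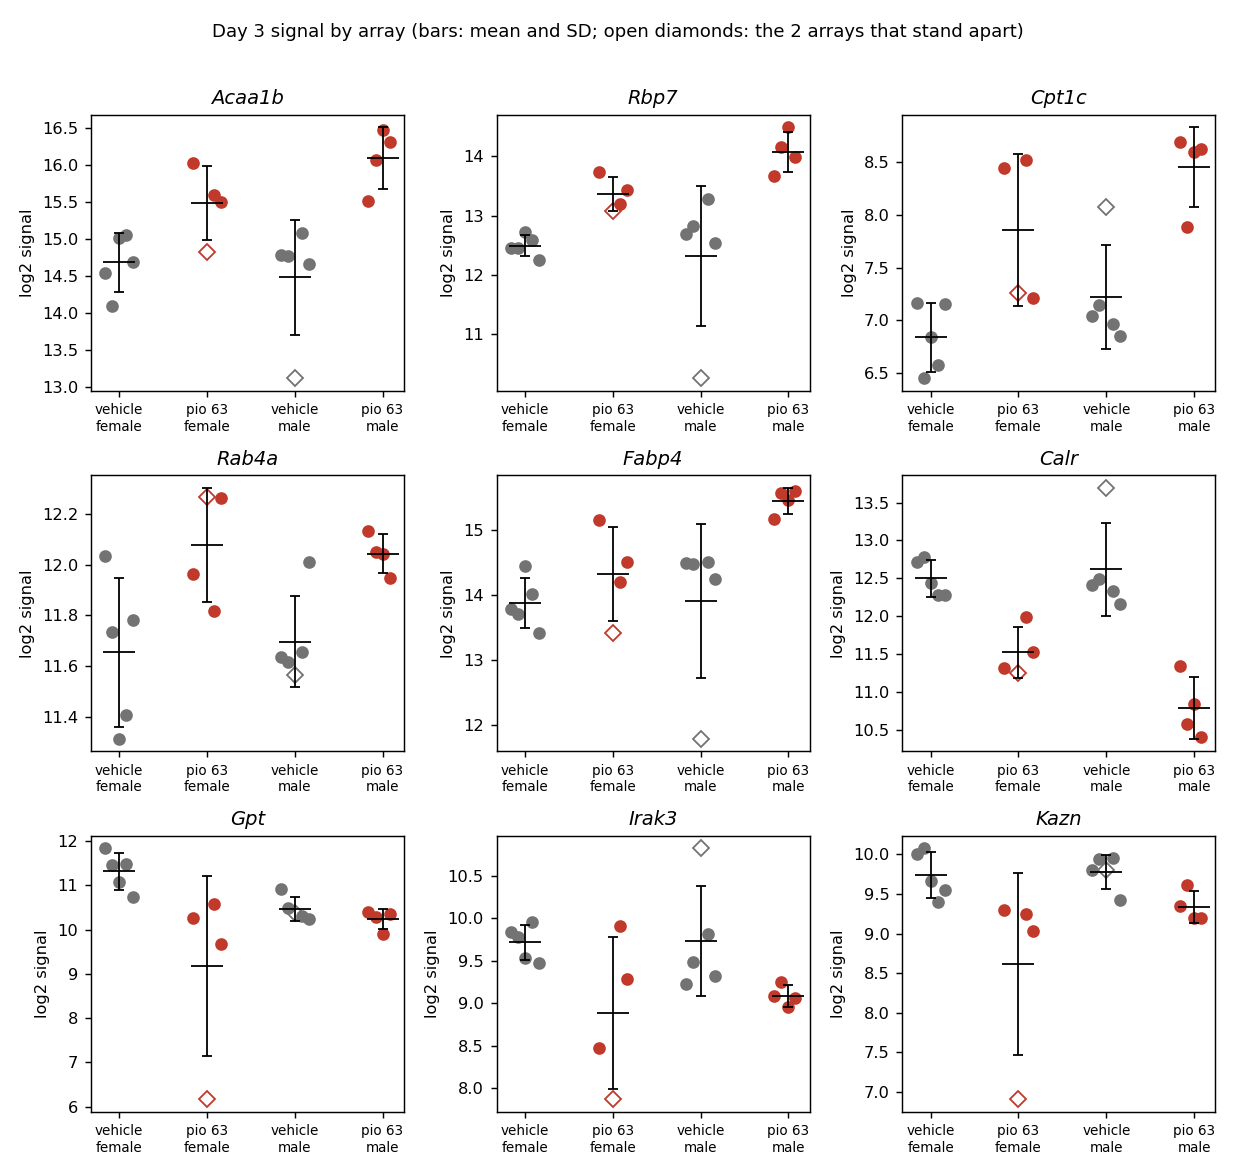
Log2 signal (vertical axes) of 9 genes on each array, by group; filled circles and open diamonds are single arrays, diamonds marking treated female 3 and vehicle male 3, and black bars give the mean and SD of 4 treated or 5 vehicle arrays. Rbp7 and Calr separate treated from vehicle arrays in both sexes. Gpt and Kazn do so in females only, where treated female 3 lies far below the other treated arrays.

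Calr fell more than any other gene called. It encodes calreticulin, a calcium-binding chaperone that folds glycoproteins in the endoplasmic reticulum. Vehicle females read 12.72, 12.78, 12.44, 12.28 and 12.28, and treated females 11.32, 11.25, 11.99 and 11.52. Vehicle males read 12.42, 12.49, 13.69, 12.34 and 12.16, and treated males 11.34, 10.58, 10.84 and 10.40. Each treated array was below each vehicle array of its sex, as for 2 of the 12713 genes (0.0157%), the second being Mcrs1, which was picked out after its values were seen and differed by only -0.28 (adjusted p 0.286). Calr fell by 1.40 ± 0.21 on the log2 scale, 2.64-fold lower, with an adjusted p of 1.09e-05. Without both arrays that stood apart it fell by 1.22 (adjusted p 0.000374). A single probe measured it.

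Gpt, Kazn and Irak3 passed the threshold only with treated female 3 in the fit. Gpt, whose enzyme exchanges amino groups between alanine and pyruvate, read 11.84, 11.47, 11.07, 11.48 and 10.75 in vehicle females and 10.27, 6.17, 10.58 and 9.68 in treated females. Treated female 3 was the value of 6.17. The female groups did not overlap, and in males the treated arrays, at 9.90 to 10.39, overlapped the vehicle arrays, at 10.24 to 10.91. The mean fall over sexes was 1.19 ± 0.24 with an adjusted p of 0.00438, and without that array the difference was -0.69 (adjusted p 0.157).

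Kazn, which encodes a desmosome-linked protein, read 6.91 in treated female 3 and 9.03 to 9.29 in the other treated females, below the vehicle females at 9.40 to 10.07. Its difference went from -0.78 (adjusted p 0.0244) to -0.50 (adjusted p 0.517) without that array, and its second probe differed by 0.17. For Irak3 the difference went from -0.74 (adjusted p 0.00581) to -0.57 (adjusted p 0.157), and its second probe was lower as well, by -0.37. Among genes that missed the threshold, Mutyh, Ube2o, Tapbp, Patz1, Med25 and Prp15 were lower by between -1.07 and -0.46 with adjusted p between 0.051 and 0.0593, and every one had an adjusted p above 0.4 without treated female 3, with differences between -0.73 and -0.39.

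Cracr2b, a calcium-binding regulator of store-operated calcium channels, was picked out after its values were seen. Its difference was -0.66 (adjusted p 0.0902) with all arrays, and it fell by 0.79 without treated female 3 (adjusted p 0.0375) and by 0.97 without both arrays that stood apart (adjusted p 0.000374). The receptor gene Pparg itself read 14.39 to 14.74 in vehicle females and 13.56 to 14.15 in treated females, which did not overlap. Vehicle males read 14.77, 14.54, 12.31, 14.65 and 14.44, and treated males 14.47, 14.48, 14.07 and 14.40. Vehicle male 3 was again far below its group. The mean difference of Pparg was -0.29 (adjusted p 0.453), and without both arrays that stood apart it fell by 0.47 (adjusted p 0.0392), as did Gpatch4, also picked out afterwards, by 0.83 (adjusted p 0.0203). Rxra, the gene of its DNA-binding partner, differed by -0.10.

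Of 26 gene lists on pathways and cell types, 2 held a gene called in the mean over sexes. For the list counts at an unadjusted p under 0.05, the background was 377 genes higher and 963 lower of all 12713. Without treated female 3 this background was 213 and 283, and the list counts at that level were taken with that array only. In the fatty acid oxidation list 3 of 36 genes rose, Acaa1a, Acaa1b and Cpt1c, against 0.0393% of all genes tested, and the median difference of the list was 0.005 beside -0.039 over all genes. These shares are no test, since the lists were written with earlier results of these data known. The thiolase probes used, correlated at 0.990, may also count 1 signal as 2 genes. Decr1, an auxiliary enzyme of mitochondrial oxidation, was lower by -0.35 (adjusted p 0.365). Of 23 PPAR-gamma targets and lipid droplet genes none was called by limma, and 2 were higher at an unadjusted p under 0.05, Fabp4 and Fabp3, the latter by 0.81 (adjusted p 0.428), or 0.53 without treated female 3. Lipoprotein lipase, Lpl, differed by -0.74 (adjusted p 0.492), or -0.38 without treated female 3. The median of these targets was -0.063, and 0.078 without treated female 3. Their mean log2 signal was 10.385 on vehicle female 2, against 8.85 to 8.93 on the other vehicle females. The summed signal of the adipocyte markers was also highest on vehicle female 2, at 17.4. The part of that array in these differences was not tested.

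Calr was the 1 gene called among 21 endoplasmic reticulum chaperones and stress genes. Another 5 of them were lower at an unadjusted p under 0.05, among them Pdia4, a disulfide isomerase (-0.76, adjusted p 0.217), and Canx, the membrane-bound relative of calreticulin (-0.48, adjusted p 0.335). Without treated female 3 the difference of Canx was -0.20. The list's median was -0.145, and -0.027 without treated female 3. Of 26 genes of oxidative stress and xenobiotic metabolism none was called, while 4 were higher and 2 lower at an unadjusted p under 0.05. The carboxylesterase Ces2c was higher by 0.92 and the cytochrome Cyp3a18 by 0.83, both with adjusted p above 0.28, and catalase, Cat, was lower by -0.70 (adjusted p 0.183). Treated female 3 read 6.08 for Cat, against 8.85 to 9.23 in the other treated females, and without it the difference was -0.33.

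No gene was called among 25 umbrella cell and differentiation genes, where 1 was higher and 4 lower at an unadjusted p under 0.05. Rab27b, which moves uroplakin vesicles to the surface, came closest with -0.62 (adjusted p 0.0813), with treated female 3 in the fit. The median of this list was -0.014, and 0.065 without treated female 3. Among 18 leukocyte markers none was called and 9 were lower at an unadjusted p under 0.05, beside 963 of all 12713 genes. Coro1a, an actin regulator of blood cells, was lower by -0.73 (adjusted p 0.0813), and Tyrobp, which passes on signals from myeloid receptors, by -0.62 (adjusted p 0.115). The median of the leukocyte list was -0.482, and -0.304 without treated female 3. Its summed log2 signal ran from 14.4 to 15.4 in vehicle females, 13.7 to 15.1 in treated females, 13.8 to 15.0 in vehicle males and 13.8 to 14.4 in treated males, so the groups overlapped. Treated female 3 had the lowest mean log2 signal of the 18 arrays for the leukocyte list (7.73) and for MHC class II genes (7.48). Of 9 MHC class II genes 4 were lower at an unadjusted p under 0.05, none of them called. Cell cycle genes were flat in these terms, with 1 of 29 lower at that level and none called. Smooth muscle markers had the highest median of all lists, 0.861, or 0.564 without treated female 3, with none of 13 at an unadjusted p under 0.05. The sexes went opposite ways, with a median of 3.04 in females and -1.30 in males. The median female minus male difference was 4.555, or 3.72 without both arrays that stood apart.

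The 2 sexes gave very different counts, and the female count rested on 1 array. In females 213 genes rose (1.68%) and 862 fell (6.78%), together 8.46% of those tested, and without treated female 3 limma called none, with 1150 genes at an unadjusted p under 0.05. Without treated female 1 the female count was 2842, without treated female 4 it was 1990, and without vehicle female 1 it was 546. The largest rises called in females were Acta1, muscle actin (3.69), Myocd, a coactivator of smooth muscle genes (2.58), Rtn4r (2.47), Aldh1b1 (2.38) and Tmem182 (2.30). The value of Tmem182 came from treated female 4 alone, at 15.26, where the other treated females read 4.92 to 5.26 and vehicle females 4.33 to 6.43. The smooth muscle markers had a median difference of 3.04 in females, and the part of that tissue in these rises was not tested beyond a fit that took the markers' level as a covariate, which called 468 genes. Falls in females were led by Gpt (-2.14), Nrg4, a ligand of ERBB4 (-1.82), Rcan2, a calcineurin regulator (-1.80), Guca2a, guanylin (-1.78), and Dnmt3l (-1.70).

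In males 9 genes rose (0.0708%) and 4 fell (0.0315%), together 0.102% of those tested. Ttr, which encodes a carrier of thyroid hormone and retinol-binding protein, rose most. It read 9.48, 9.62, 6.88, 8.76 and 8.41 with vehicle and 12.73, 10.85, 11.54 and 11.01 with pioglitazone. The male groups did not overlap, and the rise was 2.91 ± 0.50 with an adjusted p of 0.000419. In females Ttr read 8.87 to 10.01 with vehicle and 8.56 to 10.40 with pioglitazone, a difference of -0.04. Rbp7 rose by 1.76, the epithelial calmodulin-like gene Calml3 by 1.63, Acaa1a by 1.62, Acaa1b by 1.61 and Fabp4 by 1.55 in males. Ramp1, the partner of the calcitonin receptor-like receptor, rose by 1.30, with treated males at 14.41 to 15.25 above vehicle males at 12.95 to 13.97. Slurp1, a secreted epithelial peptide, fell by 2.48 and Calr by 1.83. Without both arrays that stood apart, 3 genes were called in males, Acaa1a, Calr and Ttr, the last with a rise of 2.47 (adjusted p 0.0288), and the count was also 3 without vehicle male 3 alone. The male count was 80 without vehicle male 1, 71 without vehicle male 2, 35 without vehicle male 5, 22 without treated female 4 and 7 without treated male 4.

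**Figure D3:**
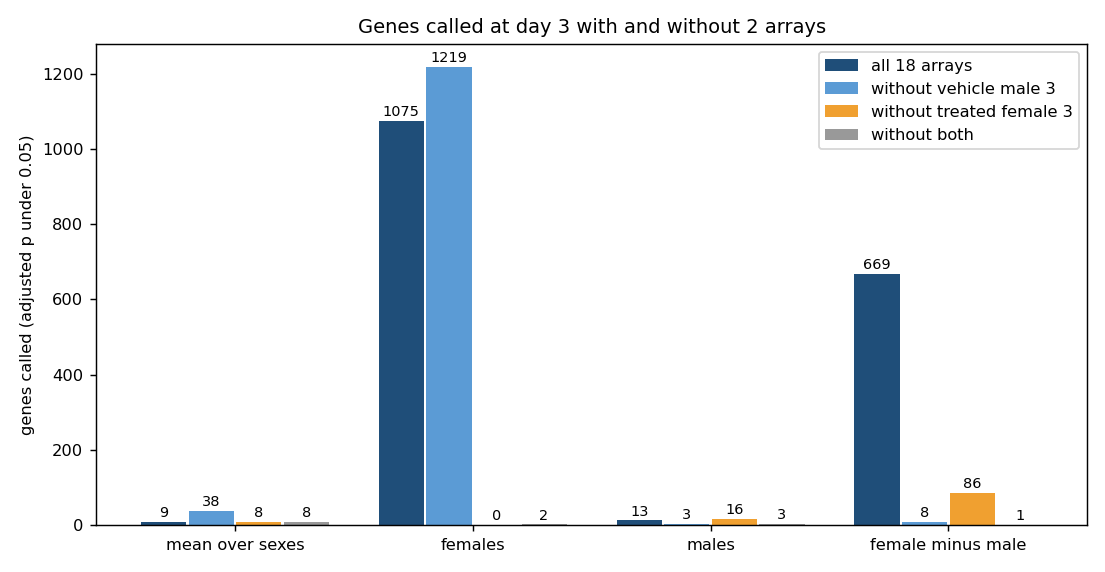
Number of genes called by limma (vertical axis) in 4 comparisons at day 3, with all 18 arrays and without 1 or both of the arrays that stood apart. The female count goes from 1075 to 0 without treated female 3, and the count for the difference between sexes from 669 to 1 without both.

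A direct test of the difference between the sexes called 669 genes, 5.26% of those tested, of which 190 (1.49%) had a higher difference in females and 479 (3.77%) a lower one. Without treated female 3 it called 86 (0.676%), without vehicle male 3 it called 8, and without both it called 1, Slurp1. That gene read 5.08 to 6.24 in vehicle females and 5.92, 5.30, 9.76 and 5.38 in treated females. Vehicle males ran from 5.71 to 10.24 and treated males from 5.16 to 5.98. Treated female 4 alone was high among treated females, and the vehicle males spread widely, so the groups overlapped in both sexes. The female difference minus the male difference of Slurp1 was 3.68 without the arrays that stood apart, with an adjusted p of 0.00723.

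Among the genes called over all arrays, Gpc3 and Ttr had the largest sex differences in each direction. Gpc3, a glypican, differed by 2.14 in females and -2.16 in males, and the complement gene C2, Ucma, Ltbp4, a binder of latent TGF-beta, and Rspo1, an R-spondin, were also higher in females, with differences between sexes of 3.84 to 4.00. Fibroblast and matrix markers moved with them, with a median difference of 1.12 in females and -0.82 in males, the latter -0.31 without both arrays that stood apart. For smooth muscle markers these medians were 3.04 and -1.30, the latter -0.88 without both. In the other direction stood Ttr (-2.94), the Notch target Hes1 (-2.61), Mreg (-2.57), Calml3 (-2.51) and Akr1c15 (-2.51). None of these 10 passed the threshold without both arrays that stood apart. The sex difference of Calr was 0.85 (adjusted p 0.182), of Acaa1b -0.81 (adjusted p 0.207) and of Rbp7 -0.89 (adjusted p 0.216), none past the threshold.

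**Figure D4:**
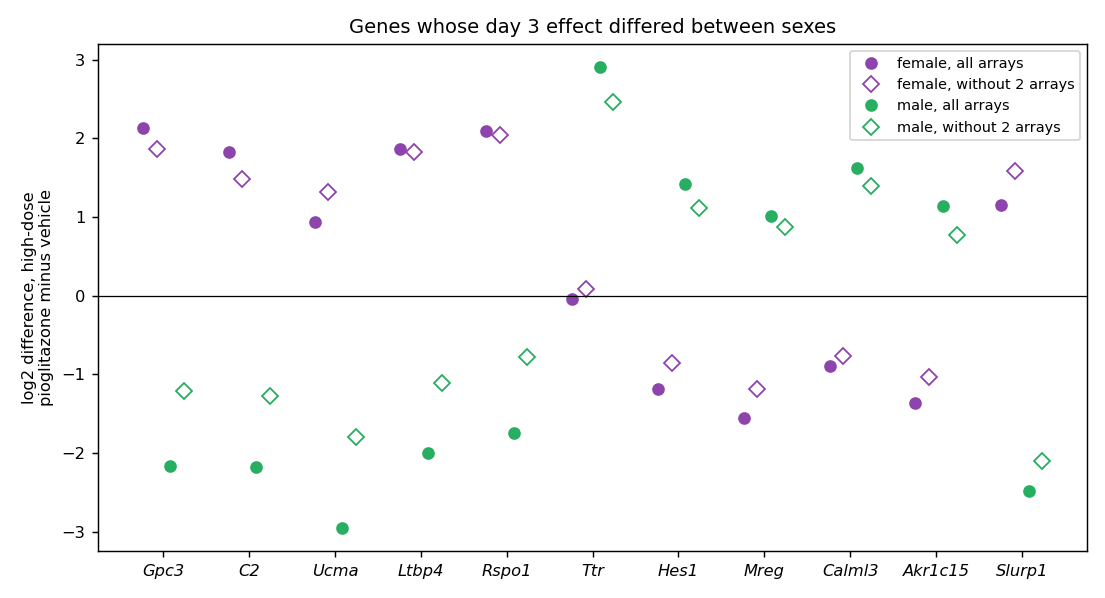
Log2 difference between high-dose pioglitazone and vehicle (vertical axis) in females and males for 11 genes; filled circles use all arrays and open diamonds leave out treated female 3 and vehicle male 3. The distance between the sexes becomes smaller without these arrays for 10 of the genes and stays near 3.7 for Slurp1.

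The high dose was set against the low dose, 16 mg/kg/day, given for the same 3 days, on 5 arrays of each sex. The 2 doses share their vehicle arrays, which cancel in a direct test, and limma called no gene between them (0%), with 1773 genes at an unadjusted p under 0.05 and 306 without treated female 3. Without treated female 1 that test called 326 genes and without treated female 4 it called 1. High minus low dose was 0.10 ± 0.21 for Acaa1b, 0.42 ± 0.23 for Rbp7, 0.26 ± 0.22 for Cpt1c and -0.41 ± 0.21 for Calr, with adjusted p between 0.356 and 0.807. Against vehicle the low dose called 3 genes (0.0236%), all of them also called at the high dose. These were Acaa1a (1.15 against 1.21 at the high dose), Acaa1b (1.11 against 1.21) and Calr (-0.99 against -1.40).

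Rosiglitazone maleate, the salt of another thiazolidinedione, given for 3 days at 10 mg/kg/day, shares the vehicle arrays too. Its values and those of high-dose pioglitazone, side by side, were 1.52 and 1.21 for Acaa1b and 1.23 and 1.31 for Rbp7. They were 1.05 and 1.13 for Cpt1c and 1.08 and 0.997 for Fabp4. For Calr they were -0.997 and -1.40, and for Ttr, as the mean over sexes, 1.71 and 1.44. With rosiglitazone 29 genes rose (0.228%) and 12 fell (0.0944%), together 0.323%. The doses differ, and no comparison between the 2 compounds was made.

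The same high dose was also given for 28 and 90 days, with vehicle arrays of their own and 5 arrays per sex and group. The rises seen at day 3 were present at both later times. Acaa1b was up by 1.36 ± 0.19 at 28 days and 1.75 ± 0.19 at 90 days, Rbp7 by 1.30 ± 0.22 and 1.67 ± 0.22, and Cpt1c by 1.64 ± 0.21 and 2.27 ± 0.21, all past the threshold. Rab4a rose by 0.35 and 0.46 and Fabp4 by 1.02 and 1.63 at these times. None of these 5 genes differed past the threshold between day 3 and a later time. For Cpt1c, day 3 minus day 90 was -1.15 ± 0.30 (adjusted p 0.355).

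Calr did not keep its fall. It differed from vehicle by 0.23 ± 0.19 at 28 days and 0.50 ± 0.19 at 90 days, with adjusted p of 0.9995 and 0.136. The difference between times was itself past the threshold, at -1.64 for day 3 minus day 28 (adjusted p 0.00118), where Calr was the 1 gene called (0.00787%). For day 3 minus day 90 it was -1.91 (adjusted p 1.53e-05), where 2 genes were called (0.0157%). The other was Rgs17, which encodes a regulator of G protein signalling. It was higher by 0.60 at day 3, or 0.38 without treated female 3, and rose by 2.002 at 28 days and 2.84 at 90 days, so that day 3 minus day 90 was -2.24 (adjusted p 0.00267). At day 3 its arrays overlapped in both sexes, between 5.92 and 7.16 in vehicle females and 6.37 and 8.47 in treated females. Without vehicle male 3 the day 90 test called 4 genes.

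**Figure D5:**
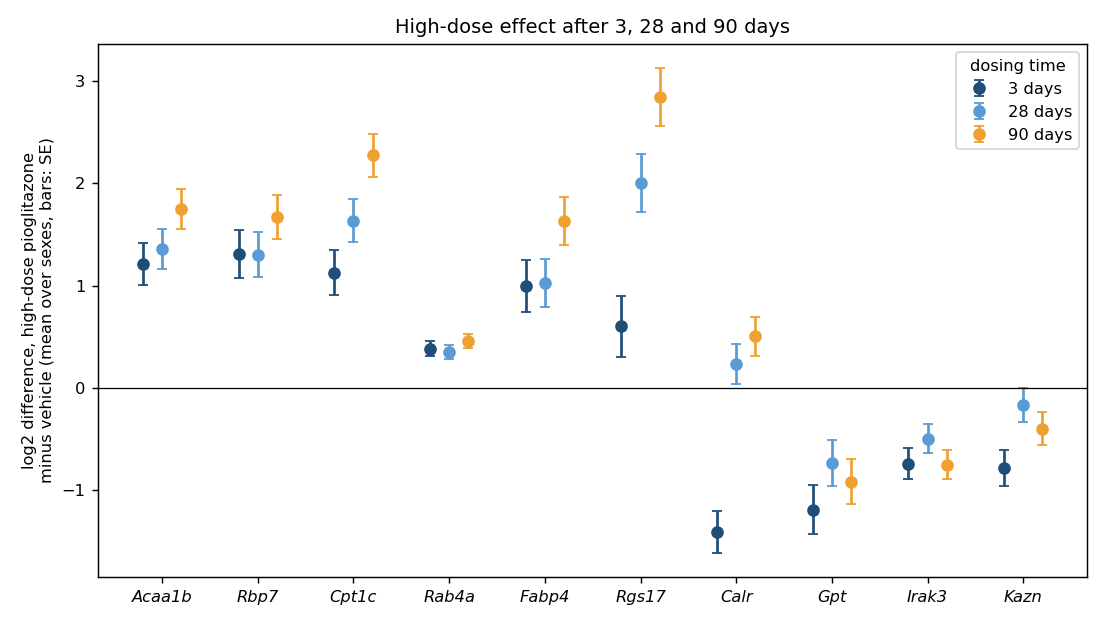
Log2 difference between high-dose pioglitazone and vehicle, as the mean over sexes with SE bars (vertical axis), for 10 genes after 3, 28 and 90 days. Calr is negative at day 3 only, and Rgs17 is highest at 90 days.

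Most genes called at the later times had a difference of the same sign at day 3. The later differences use arrays of their own, while the spread behind all calls comes from the fit over all arrays, day 3 included, and without treated female 3 that fit called 80 genes at 28 days and 637 at 90 days. At 28 days 44 genes rose (0.346%) and 27 fell (0.212%), together 0.558%. Of the 44, 43 had a difference above 0 at day 3, with a median of 0.356 against 0.863 at 28 days. Of these 44, 5 were called at day 3, beside 9 of all 12713 genes (0.0708%). Of the 27, 26 were below 0 at day 3, with a median of -0.428. At 90 days 236 genes rose (1.86%) and 303 fell (2.38%), together 4.24%. Of them 214 and 271 had that sign at day 3, 75 and 118 at an unadjusted p under 0.05. Of all 12713 genes 377 were higher and 963 lower at that level, or 213 and 283 without treated female 3. The 75 and 118 were counted with that array only. Over all genes tested 43.04% were above 0 at day 3. Without treated female 3 the counts with the same sign were 225 of 236 and 264 of 303, beside 51.61% of all genes above 0.

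The counts were also taken in each sex, and the difference between sexes in them was not tested. Of the 44 genes that rose at 28 days 40 were above 0 at day 3 in males and 29 in females, and of the 27 that fell 21 and 24 were below 0. Of the 236 that rose at 90 days 188 were above 0 in males and 174 in females. Of the 303 genes that fell at 90 days, 288 were below 0 in females at day 3, with a median of -0.484, and 166 were below 0 in males, with a median of -0.048. Over all 12713 genes 5022 were above 0 in females and 7111 in males, with medians of -0.114 and 0.039, so the background differs between the sexes as well. Without treated female 3 the female count was 283 of 303. Among the lists, 6 of 23 PPAR-gamma targets rose at 90 days with a list median of 0.943, where none was called at day 3. The 12 adipocyte markers had a median of 1.17 at 90 days, with none called, and -0.034 at day 3. At 28 days the medians were 0.395 for the targets and 0.371 for the adipocyte markers. The part of fat tissue in these medians was not tested. Of the 18 leukocyte markers 6 fell at 90 days, with a list median of -0.548. At day 3 that median was -0.482, or -0.304 without treated female 3. Over all genes the median was -0.001 at 90 days and -0.039 at day 3, or 0.008 at day 3 without treated female 3.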

How the data were processed

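The values are the authors' deposited log2 intensities, 1 value per probe and array, from one-colour Agilent arrays. The submitters' processing notes name limma. The background correction and normalisation are not given in the sources used here. Of 30367 probes, 20369 had 1 gene symbol and 9998 none. Accessions matched RefSeq for 17245 probes, which changed 2887 symbols. For each of 16951 genes the probe of highest mean signal was kept, and the lowest 25% by mean signal were left out, leaving 12713. The number of arrays limits the precision.

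A model with 1 mean per group was fitted over all 116 arrays with limma 3.58.1 in R 4.3.3, using eBayes with a trend. Treated minus vehicle was taken within each sex and averaged. P-values were adjusted over all tested genes by the Benjamini-Hochberg method, and a call needed a value under 0.05 after adjustment. P-values measure the spread between these samples, which the labels do not tie to single animals. The script was tested on simulated data.

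The named genes were the largest called rises and falls with 1 sign in both sexes, filled up to 10 per direction by the smallest unadjusted p, up to 4 members of each list, the 5 largest of each other contrast per direction, Pparg and Rxra. The gene lists, like the comparison itself, were chosen with earlier results of these data known. Alternatives covered the failing arrays, the samples fitted, normalisation, filters, probes, weights and each array left out. Those without both arrays that stood apart, those over day 3 arrays alone without them and the smooth muscle covariate were added after seeing the data.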

Additional observations from a re-analysis of the deposited data

Results flagged for a closer look

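In 12 of 88 combinations of a named gene and a group of 4 or 5 arrays, 1 array lay far from the rest of its group, by a criterion that chance meets in about 1 of 20 groups. Vehicle male 3 was that array for 7 genes, with log2 signals of 10.26 for Rbp7, 12.66 for Acaa1a, 13.12 for Acaa1b, 11.79 for Fabp4 and 12.31 for Pparg, all below the group, and 8.08 for Cpt1c, above it. The same array was high for Calr, at 13.69 against a mean of 12.35 in the others. Treated female 3 was low for Kazn, at 6.91, and for Prp15, at 3.99. Treated male 2 was low for Cpt1c, at 7.88, vehicle male 5 was high for Rab4a, at 12.01, and vehicle female 1 was high for Cpsf6, at 9.38.

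Several named genes passed a direct test of the difference between sexes, female minus male. Higher in females were Gpc3 by 4.30, C2 by 4.00, Ucma by 3.89, Ltbp4 by 3.86, Rspo1 by 3.84, Slurp1 by 3.63, Rtn4r by 3.52 and Rhbdl1 by 1.78. Lower in females were Ttr at -2.94, Hes1 at -2.61, Mreg at -2.57, Calml3 at -2.51, Akr1c15 at -2.51, Nrg4 at -1.94, Gpt at -1.91, Dnmt3l at -1.83 and Pparg at -1.01. Without both arrays that stood apart, Slurp1 alone passed.

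Between dosing times, the response of Calr differed by -1.64 from day 28 and by -1.91 from day 90, and that of Rgs17 by -2.24 from day 90, each in a direct test.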

How the results depend on the processing

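Calr kept its direction and its call in all 32 alternatives, Rbp7, Acaa1a and Cpt1c in 30, and Acaa1b in 29. Rab4a and Gpt kept theirs in 27, Irak3 in 25 and Kazn in 20. With all failing arrays of the series included, 2 of them in this comparison, 222 genes rose and 624 fell over both sexes. In that fit 4053 were called in females, 3 in males, 1956 between doses, 0 against day 28 and 1 against day 90. Rab4a (-0.16), Pgk1 (-0.11) and Ramp1 (-0.24) turned negative. Array weights gave 11 and 43 over both sexes, 2270 in females, 66 in males, 2486 between sexes, 3485 between doses, 3 and 442 against the later times, and Rxra at 0.10. Fitted on the 18 arrays alone, where doses and times could not be compared, the counts were 0 and 1 over both sexes, 0 in females, 2 in males and 0 between sexes, and without treated female 3 as well 1, 1, 0, 2 and 0. On day 3 arrays without both that stood apart, 4 rose and 1 fell over both sexes, 0 were called in females, 4 in males and 0 between sexes, and in the full fit without both, 2, 3 and 1. Leaving out the dimmest 50% gave 10 and 16, and 28 in males. The mean of a gene's probes gave 2 falls, quantile normalisation 20 calls in males, and the smooth muscle covariate 10 and 12, 468 in females, 115 between sexes and 2 against day 28. Same-numbered treated and vehicle arrays correlated in their deviations between -0.446 and 0.519. These values gave no ground to pair the arrays by number, though so few pairs cannot exclude a pairing. With the replicate block, 5 rose and 5 fell, 1182 were called in females, 10 in males and 768 between sexes, and Rxra was at 0.03. Leaving out 1 array at a time gave 5 to 40 rises, 2 to 168 falls, 0 to 2842 calls in females, 3 to 80 in males, 8 to 2148 between sexes, 0 to 326 between doses, 1 to 2 against day 28 and 2 to 4 against day 90, and Rxra between -0.30 and 0.078, the latter without vehicle female 1, and at 0.057 without vehicle female 2. The causes were not tested beyond the arrays each setting leaves out.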
